A study of Mus musculus with 27 samples.

Results

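The comparison described here sets TAC mice given the BET bromodomain inhibitor JQ1 against TAC mice given vehicle, both sampled at day 3, and takes in 6 of the study's 27 arrays. Each group held 3 arrays, and 19937 genes were compared, each through the probe set with the highest mean level over all arrays. The study profiled mouse hearts on Affymetrix gene arrays in 9 groups of 3 arrays, namely 3 treatments (a sham operation followed by vehicle, TAC followed by vehicle, TAC followed by JQ1) crossed with day 3, day 11 and day 28. TAC, transverse aortic constriction, narrows the aortic arch and loads the left ventricle with pressure. All mice were C57Bl/6J male littermates of 10 to 12 weeks, and the sham group was given vehicle as well. Dosing with JQ1 or vehicle started 1.5 days after the operation, so that the day 3 hearts had been exposed for at most 1.5 days. RNA came from a piece of 10 to 20 mg of heart tissue, a mixture of all cell types in that piece. The labels give replicate numbers but do not say whether a number marks a separate animal. The p-values and standard errors therefore measure the spread between samples, estimated for each gene within the 9 groups of all 27 arrays.

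BET proteins bind acetylated histones through paired bromodomains and help to bring P-TEFb, the kinase of Cdk9 and a cyclin T, to promoters and enhancers. P-TEFb phosphorylates paused RNA polymerase II and its pausing factors and so lets transcription move into the gene body. JQ1 occupies the acetyl-lysine pocket of the bromodomains and displaces BET proteins from chromatin. In the pressure-loaded heart the first days bring immediate early genes, entry of monocytes, division of non-muscle cells and return of the fetal program of cardiomyocytes.

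Levels are log2 signals, on which a difference of 1 is a doubling, and a difference is JQ1 minus vehicle with its standard error. A gene was called when its adjusted p from limma, with Benjamini-Hochberg adjustment over all 19937 genes, was under 0.05. The tissue was heart by its markers: the 17 adult sarcomere genes had group mean levels from 11.0 to 13.9 in the vehicle group, where the median over all genes was 7.35. Array medians over the 27 arrays ranged from 6.95 to 7.04. JQ1 replicate 1 stood apart from the rest of its group, correlating over genes at 0.990 and 0.986 with replicates 2 and 3, which correlated at 0.996 with each other. Vehicle replicate 2 correlated at 0.994 with both replicates 1 and 3 of its group, which correlated at 0.996. Their labels give no reason to leave either out, so results that rest on them are given with and without them.

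JQ1 changed the cardiac transcriptome by day 3. As deposited, the values held more and larger decreases than increases, and the balance of counts depended on scaling, as given below. The test called 2372 of 19937 genes, 11.9%, of which 854 (4.28%) were higher and 1518 (7.61%) lower with JQ1. At least 1.5-fold change was reached by 81 of the called genes that rose (0.406% of all genes) and by 453 of those that fell (2.27%). A doubling was reached by 17 genes upward and 100 downward. Over all genes the median difference was 0.02. In 2209 of the called genes the 3 JQ1 and the 3 vehicle arrays did not overlap, as against 4601 genes (23.1%) without overlap in all.

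These counts depend on single arrays and on the estimate of the spread. Without JQ1 replicate 1 the test called 1409 genes, without vehicle replicate 2 it called 1485, and without both it called 951. Across all 6 ways of leaving out an array, 956 genes stayed called, 284 higher and 672 lower. A fit restricted to the 6 arrays called 422 genes, 89 higher and 333 lower, of which 415 were among the 2372. In the fit of all groups, the higher genes numbered 499 when vehicle replicate 2 was left out. Scaling moved the balance of directions, which was 854 higher and 1518 lower as deposited, 1246 and 1424 (53.3% lower) after a further quantile normalization, and 1224 and 1042 (46% lower) after centring every array on its median.

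**Figure D1:**
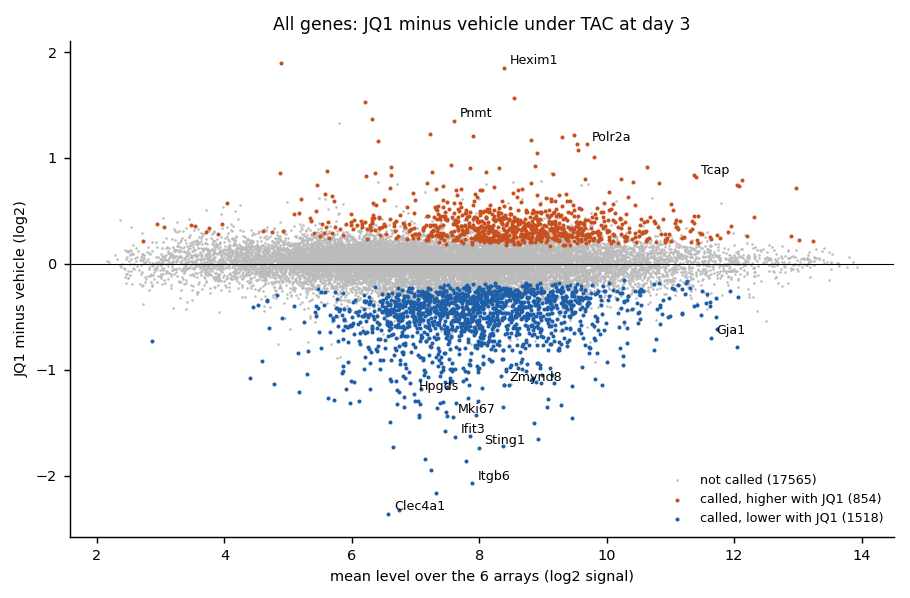
Difference between JQ1 and vehicle (y axis, log2) against the mean level over the 6 arrays (x axis, log2 signal) for all 19937 genes at day 3. Called genes are coloured: the 854 that were higher reach up to about the level of Hexim1, and the 1518 that were lower reach further from 0, to Clec4a1.

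Among the leading increases were genes of the machinery that JQ1 acts on. Hexim1, which holds P-TEFb inactive in the 7SK complex, read 7.49, 7.44 and 7.45 in the vehicle arrays and 9.65, 9.32 and 8.96 in the JQ1 arrays. The JQ1 arrays lay more than 1 unit above every vehicle array, and the sham arrays (7.48, 7.43 and 7.7) lay with vehicle. Brd2, itself a BET protein, read 9.18, 9.32 and 9.38 with vehicle and 10.52, 10.26 and 10.13 with JQ1, a difference of 1.01 ± 0.08 (limma adjusted p = 6.74e-08). Polr2a, the largest subunit of RNA polymerase II and the substrate of P-TEFb, read 8.97, 9.19 and 9.21 against 10.63, 10.12 and 9.99, a difference of 1.13 ± 0.12 (adjusted p = 1.65e-06). In these 3 genes the groups were separate, and JQ1 replicate 1 was the highest array.

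Of the 27 measured genes of P-TEFb and pause release, 9 were higher and 1 was lower, and their median difference was 0.14 against 0.02 over all genes. The genes that rose were Hexim1, Polr2a, Mepce, Paf1, Aff4, Cdk9, Ctr9, Ell2 and Supt5. Mepce, which caps and steadies 7SK RNA, rose (0.55 ± 0.1, adjusted p = 0.000466), and Paf1, of the elongation complex of that name, rose too (0.39 ± 0.07, adjusted p = 0.000471). The gene that fell was Hexim2, the paralog of Hexim1, with -0.25, a call lost without JQ1 replicate 1 or 2 or vehicle replicate 2 or 3. Without JQ1 replicate 1 the median was 0.09 and the count of higher genes was 4, and in the fit of the 6 arrays it was 2. Of the 3 BET genes measured, Brd3 (0.13 ± 0.07, adjusted p = 0.267) and Brdt did not pass.

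**Figure D2:**
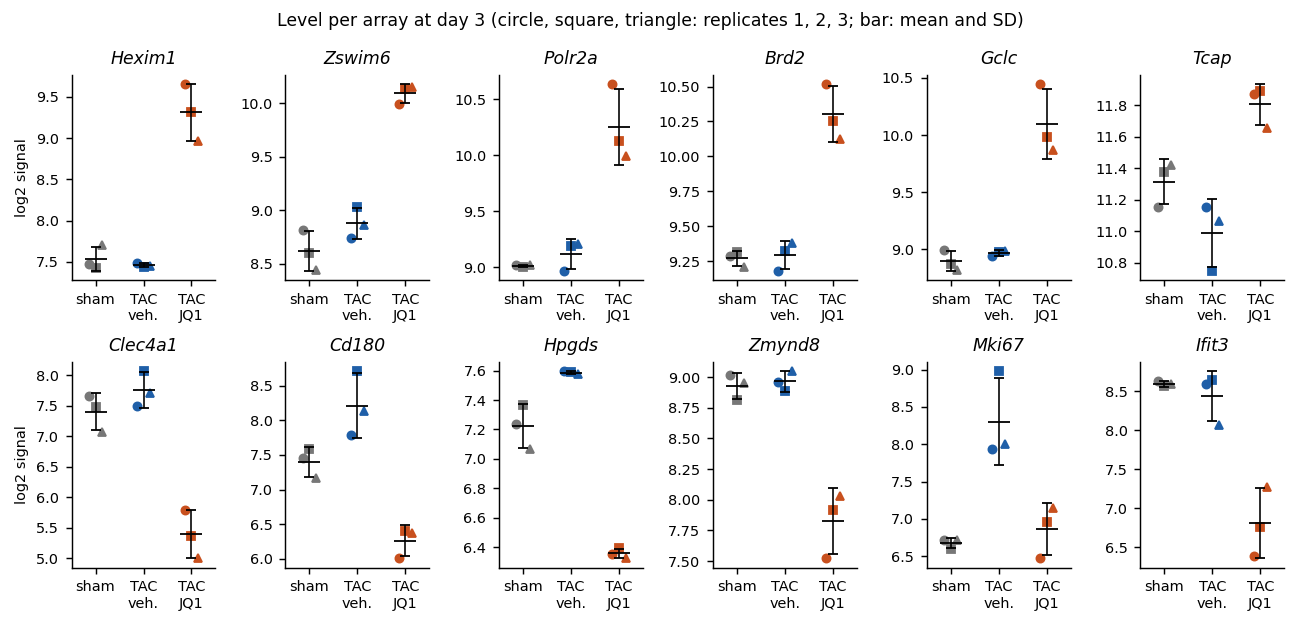
Level of 12 genes (y axes, log2 signal, each panel with its own range) in the 9 arrays of day 3, by group (sham operated, vehicle-treated TAC, JQ1-treated TAC). Symbols are single arrays and bars the mean and SD of 3. In each of the 12 panels the JQ1 arrays lie apart from the vehicle arrays, upward in the 6 upper panels and downward in the 6 lower ones.

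Several genes outside that list rose as evenly. Zswim6, a zinc finger gene, read 8.74, 9.03 and 8.86 with vehicle and 9.99, 10.13 and 10.15 with JQ1, a difference of 1.21 ± 0.09 or 2.32-fold (adjusted p = 6.11e-08). Cnnm4, a magnesium transporter, read 7.04, 7.17 and 7.08 and 8.03, 8.08 and 7.96 (difference 0.93 ± 0.09, adjusted p = 6.19e-07). In both genes the JQ1 arrays agreed within 0.2 units, so JQ1 replicate 1 did not stand out there. Glcci1, known as a transcript induced by glucocorticoids, rose (1.04 ± 0.1, adjusted p = 6.19e-07), and Tbc1d8, of a family that acts on Rab GTPases, rose too (0.71 ± 0.07, adjusted p = 9.21e-07).

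In other leading genes JQ1 replicate 1 was the highest array, and the size of the rise depended on it. The imprinted gene Peg3 read 7.58, 7.7 and 7.99 with vehicle and 10.86, 8.52 and 8.58 with JQ1, a difference of 1.56 ± 0.35 (adjusted p = 0.00398), and of 0.79 without that array. Peg10, another imprinted gene, read 7.1, 7.38 and 7.43 against 9.03, 8.28 and 8.2, a difference of 1.2 ± 0.16 and of 0.94 without it. Pnmt, which makes adrenaline from noradrenaline, had JQ1 levels of 9.09, 8.15 and 7.6 above vehicle levels of 7.01, 6.8 and 6.97. The odorant receptor gene Olfr920 read 8.51, 6.48 and 6.0 with JQ1, above 5.78, 5.9 and 5.83 with vehicle. Its adjusted p was 0.0268, and 0.0869 when JQ1 replicate 1 was left out, and the call was also lost without any of the vehicle arrays. The groups did not overlap in these 4 genes, but this was a condition for naming them among the largest increases.

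Probe sets named for muscle microRNA genes also rose. That of Mir133a-1 read 6.7, 6.49 and 6.65 with vehicle and 8.73, 7.65 and 7.15 with JQ1 (difference 1.23 ± 0.25, adjusted p = 0.00209; 0.78 without JQ1 replicate 1). That of Mir1a-1 read 5.58, 5.35 and 5.38 and 7.9, 6.44 and 6.56. An array of this kind reads the longer transcripts that span these hairpins, not the mature microRNAs, so no level of a mature microRNA follows from it.

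The clustered histone genes split. Of 26 measured, 4 were higher and 3 lower. H3c15 read 5.53, 5.61 and 5.74 with vehicle and 8.1, 6.73 and 6.16 with JQ1 (difference 1.37 ± 0.33, adjusted p = 0.00679), but did not pass when JQ1 replicate 1 was left out (adjusted p = 0.062). H2bc4 rose from 11.8, 11.62 and 11.71 to 12.63, 12.34 and 12.36 (difference 0.73 ± 0.09, adjusted p = 5.69e-06) and H1f2 rose too (0.77 ± 0.14, adjusted p = 0.000733), and both held in every fit without an array. H2ac4 went the other way, from 4.76, 6.08 and 5.2 to 4.07, 4.49 and 4.06 (difference -1.14 ± 0.26, adjusted p = 0.00548), and did not pass without vehicle replicate 2 (adjusted p = 0.0567). The count of lower genes was 1 without JQ1 replicate 1 and 5 without vehicle replicate 1, and without vehicle replicate 2 limma called 0 lower, with 2 at an unadjusted p under 0.05. Arrays centred on their medians gave 8 higher and 2 lower histone genes. Histone genes are near-identical copies, and their probe sets may read more than the gene they are named for.

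Of the 12 genes of the Myc, Max and Mxd network, 3 rose: Mxi1 (0.42 ± 0.07, adjusted p = 0.000494), Mlxip (0.34 ± 0.11, adjusted p = 0.0482) and Mxd1 (0.31 ± 0.08, adjusted p = 0.0116). Mxi1 and Mxd1 encode proteins that compete with Myc for its partner Max. Mxi1 read 8.31, 7.98 and 8.19 with vehicle and 8.74, 8.54 and 8.46 with JQ1, and the call held without any single array. Mlxip lost its call without JQ1 replicate 1 or any of the vehicle arrays, and Mxd1 without JQ1 replicate 2 or vehicle replicate 2, which left 1 gene in that last case.

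Genes of the early stress response rose or did not pass. Of 33 immediate early genes, 5 were higher and 28 did not pass, with a median difference of 0.20. These are 15.2% called, all higher, beside 11.9% of all genes called and 4.28% called higher. Atf3, a stress-induced transcription factor, read 7.98, 8.32 and 8.38 with vehicle and 8.82, 8.96 and 10.4 with JQ1 (difference 1.17 ± 0.28, adjusted p = 0.00657), with the highest value in JQ1 replicate 3. Jund, an AP-1 subunit, read 8.88, 9.08 and 8.83 against 9.6, 9.56 and 9.58 (difference 0.65 ± 0.1, adjusted p = 0.000171). Gadd45a, a growth arrest gene, read 7.53, 7.27 and 7.43 against 7.89, 8.12 and 7.94 (difference 0.58 ± 0.08, adjusted p = 6.98e-05). All 3 JQ1 arrays exceeded all 3 vehicle arrays in these genes. The count ranged from 4 to 7 when an array was left out.

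Antioxidant genes moved in part. Of 43 glutathione and NRF2 target genes, 7 were higher and 2 lower, with a median of 0.14, and of 0.06 without JQ1 replicate 1. Averaged over the list and set against sham, the JQ1 arrays stood at 0.41, 0.13 and -0.004 and the vehicle arrays at -0.01, -0.03 and 0.05, so JQ1 replicate 3 lay within the vehicle range. Nfe2l2, which encodes NRF2, read 10.7, 10.72 and 10.62 with vehicle and 11.19, 11.05 and 11.07 with JQ1 (difference 0.42 ± 0.08, adjusted p = 0.000688). Gclc, the catalytic subunit of the enzyme that limits glutathione synthesis, read 8.94, 8.98 and 8.99 against 10.45, 9.98 and 9.87 (adjusted p = 1.88e-07). The metallothioneins, which bind zinc and copper, stood higher as well: Mt1 rose (0.79 ± 0.17, adjusted p = 0.00271) and Mt2 rose too (0.72 ± 0.18, adjusted p = 0.0101), the latter lost without JQ1 replicate 1 or vehicle replicate 1. Without JQ1 replicate 1 the list had 3 higher genes and 1 lower, without vehicle replicate 2 it had 4, and without JQ1 replicate 3 it had 12.

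In the unfolded protein response 2 of 26 genes rose and 2 fell, which is 15.4% called beside 11.9% of all genes. Ern1, the endoplasmic reticulum sensor IRE1, rose from 8.28, 8.15 and 8.23 to 8.84, 8.72 and 8.7 (difference 0.53 ± 0.08, adjusted p = 9.95e-05), while the chaperone Hsp90b1 fell (-0.29 ± 0.07, adjusted p = 0.00792). Leaving out JQ1 replicate 1 gave 1 higher and 1 lower, leaving out vehicle replicate 1 gave 1 higher, and leaving out vehicle replicate 2 gave 1 lower. Of 29 ATF4 and amino acid genes, 3 rose and 1 (Aldh18a1) fell, which is 13.8% called, near the share over all genes. Among those that rose were both chains of an amino acid transporter: Slc7a5 (0.49 ± 0.1, adjusted p = 0.00258) and Slc3a2 (0.4 ± 0.1, adjusted p = 0.0115). The Slc3a2 call was lost without JQ1 replicate 1 or without vehicle replicate 1, and without the latter 1 gene of the list was higher. The Aldh18a1 call was lost without JQ1 replicate 1 or 2. Among 39 genes of ribosome biogenesis in the nucleolus 1 rose and 4 fell, which is 12.8% called, near the 11.9% of all genes. The gene that rose, Nop56 of the small nucleolar ribonucleoproteins, read 9.57, 9.89 and 9.65 with vehicle and 10.52, 10.35 and 10.27 with JQ1 (difference 0.68 ± 0.08, adjusted p = 4.29e-06). The 4 decreases, in Dkc1, Gar1, Polr1a and Utp20, became 1 without JQ1 replicate 1 and 2 without JQ1 replicate 2. Without vehicle replicate 2 limma called 0 lower, with 5 at an unadjusted p under 0.05, and after centring on array medians 1 was lower. Of 62 cytosolic ribosomal protein genes 1 (Rpl29) rose, and that call was lost without JQ1 replicate 1 or vehicle replicate 3.

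Glucocorticoid-responsive genes differed widely among the JQ1 arrays. Of 19 measured, 5 were higher (Dusp1, Fkbp5, Map3k6, Mt1 and Mt2), with a median difference of 0.46. Mt1 and Mt2 are also counted among the antioxidant genes above, and Dusp1 among the immediate early genes. Averaged over the list and set against sham, the JQ1 arrays stood at 0.94, 0.44 and -0.04, and the vehicle arrays at 0.01, -0.10 and 0.23. JQ1 replicate 3 therefore lay within the vehicle range. Fkbp5, a textbook target of the glucocorticoid receptor, read 10.32, 9.29 and 8.4 with JQ1 against 8.26, 8.31 and 8.67 with vehicle, so the groups overlapped (difference 0.92 ± 0.3, adjusted p = 0.0428). When JQ1 replicate 1 was left out the list's median was 0.12 and 1 gene was higher. The count was 2 without JQ1 replicate 2, without vehicle replicate 1 or without vehicle replicate 2, and 11 without JQ1 replicate 3. Nr3c1, the receptor's own gene, read 9.55, 9.55 and 9.31 and 9.05, 9.13 and 9.26 (difference -0.33 ± 0.09, adjusted p = 0.0133), a call lost without JQ1 replicate 1, vehicle replicate 1 or vehicle replicate 2. Nr3c1 was also the gene that fell among 19 genes of the renin-angiotensin, adrenergic and catecholamine systems, where Pnmt and Agt, the precursor of angiotensin, rose. Those calls make 15.8% of the list, beside 11.9% of all genes. Agt read 7.91, 7.6 and 8.12 with vehicle and 8.63, 8.34 and 7.99 with JQ1, so its groups overlapped (difference 0.44 ± 0.14, adjusted p = 0.0452). Without JQ1 replicate 1 or 2, or without vehicle replicate 1 or 2, 1 gene of that list was higher.

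Of 20 circadian clock and output genes, 5 rose and 15 did not pass, and leaving out single arrays gave 4 to 6. Ciart, a repressor within the clock, read 9.15, 8.64 and 8.31 with vehicle and 10.0, 10.08 and 9.61 with JQ1 (difference 1.2 ± 0.24, adjusted p = 0.00144). The repressors Cry1 (0.69 ± 0.1, adjusted p = 5.51e-05) and Cry2 (0.7 ± 0.14, adjusted p = 0.0013) and the output factor Hlf (0.47 ± 0.09, adjusted p = 0.00113) were higher too. In these 4 genes the groups did not overlap. The labels give no time of day for the tissue, and its part in these differences was not tested. Cirbp, a cold-inducible RNA-binding protein, read 9.0, 8.83 and 9.2 against 10.76, 9.87 and 9.62 (difference 1.07 ± 0.19, adjusted p = 0.000465). The Ciart promoter is shown because its 250 bases before the start hold 3 copies of the E-box CACGTG, the element that the clock factors Clock and Bmal1 bind. They lie 116, 58 and 44 bases before the start and stand in capitals. The window is chr3:95882229-95882478 on the minus strand of GRCm38.p6, from RefSeq.
Ciart: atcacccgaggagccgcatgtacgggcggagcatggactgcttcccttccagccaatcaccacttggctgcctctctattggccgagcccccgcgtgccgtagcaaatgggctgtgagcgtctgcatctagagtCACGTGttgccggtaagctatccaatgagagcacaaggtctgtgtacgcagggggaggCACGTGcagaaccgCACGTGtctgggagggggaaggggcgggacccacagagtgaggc
The E-box was found in 9.5% of the 15613 tested genes that have a promoter entry, and Ciart was the only 1 of the 13 genes with an entry, among 19 that led the increases, to hold it. Among the 19 with an entry that led the decreases, B3galt2 and Nxpe4 held it (10.5%).

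Many of the largest decreases were in genes of monocytes and macrophages, the phagocytes that live in the heart and enter it after injury. Clec4a1, a C-type lectin of these cells, read 7.49, 8.06 and 7.71 with vehicle and 5.8, 5.37 and 5.01 with JQ1, which is 5.15-fold lower. Cd180, a relative of the Toll-like receptors, read 7.78, 8.71 and 8.14 against 6.01, 6.4 and 6.38. Mpeg1, which forms pores in engulfed microbes, read 7.41, 8.08 and 7.87 against 6.3, 6.28 and 6.43 (difference -1.45 ± 0.17, adjusted p = 8.52e-06). Fcgr1, the high-affinity receptor for IgG, read 7.16, 7.69 and 7.55 against 6.21, 6.42 and 6.42 (difference -1.12 ± 0.12, adjusted p = 1.66e-06). In each of these 4 genes every JQ1 array was below every vehicle array. The surface protein Ms4a7 (-1.73 ± 0.23, adjusted p = 3.15e-05) fell likewise, and so did the pan-leukocyte gene Ptprc (-0.95 ± 0.15, adjusted p = 0.000204).

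Of 40 macrophage and monocyte markers measured, 26 were lower with JQ1 and 14 did not pass, with a median of -0.63 against 0.02 over all genes. The called members ranged from -0.34 to -2.33. In 24 of the 26 the groups did not overlap, a share like that of all called genes (2209 of 2372). They include the defining markers Adgre1, Cd68, Csf1r, Aif1, Lyz2, Mrc1, Itgam and Cx3cr1, and Spi1, the gene of the lineage factor PU.1. Averaged over the 40 markers and set against the sham mean, the vehicle arrays stood at 0.15, 0.59 and 0.50. The JQ1 arrays stood at -0.33, -0.12 and -0.18, apart from vehicle and below the sham mean. Single sham arrays stood at 0.06, 0.10 and -0.16, so JQ1 and sham overlapped. With JQ1 replicate 1 left out the count was 16 (median -0.44), without vehicle replicate 2 it was 14 (median -0.51), and 12 markers were lower in every fit without an array. Without both arrays it was 6, with a median of -0.42. In tissue of mixed cells, fewer cells of a type and less RNA per cell cannot be told apart. The innate receptors, MHC class II genes, chemokines, complement genes, integrins, cytokine receptors and interferon-stimulated genes described next moved with these markers, whose part in those results was not tested. Several of these lists share called genes with the markers, among them Itgam, Ccr2, Cx3cr1, Ctss, Csf1r and Mrc1. Others share called genes with each other, such as Itgax and Cxcl10. The lists are therefore not separate observations. No marker can be placed at 0 on this array, and the 40 markers had vehicle means from 5.21 to 11.6.

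The promoters of 3 of the genes that fell are shown because they hold GAGGAA, which carries the core of the PU.1 site. They are given from RefSeq (GRCm38.p6), 250 bases before the start, 5′ to 3′ on the gene's strand, with GAGGAA, or TTCCTC where it lies on the other strand, in capitals. Clec12a is at chr6:129349994-129350243 (plus strand), Clec4a1 at chr6:122921598-122921847 (plus) and Hpgds at chr6:65144731-65144980 (minus).
Clec12a: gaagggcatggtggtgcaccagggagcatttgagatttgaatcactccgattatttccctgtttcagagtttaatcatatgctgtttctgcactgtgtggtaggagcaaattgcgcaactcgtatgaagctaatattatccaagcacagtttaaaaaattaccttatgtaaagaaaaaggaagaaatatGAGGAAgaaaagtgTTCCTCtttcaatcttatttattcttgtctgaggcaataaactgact
Clec4a1: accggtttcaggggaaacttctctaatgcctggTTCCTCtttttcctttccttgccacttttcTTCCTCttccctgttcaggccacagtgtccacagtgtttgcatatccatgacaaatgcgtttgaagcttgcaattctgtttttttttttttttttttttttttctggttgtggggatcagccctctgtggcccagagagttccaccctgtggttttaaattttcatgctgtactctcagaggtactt
Hpgds: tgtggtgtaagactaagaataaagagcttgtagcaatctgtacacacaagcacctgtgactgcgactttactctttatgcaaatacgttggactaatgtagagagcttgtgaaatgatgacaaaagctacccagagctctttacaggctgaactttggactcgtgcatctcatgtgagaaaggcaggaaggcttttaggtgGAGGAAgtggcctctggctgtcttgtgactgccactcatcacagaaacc
Both strands of the 300 bases from 250 before to 50 after each start were searched. Of the 22 genes that led the decreases 19 had an entry, and 12 of these (63.2%) held GAGGAA in at least 1 of their windows, as did 4 of 13 (30.8%) that led the increases and 30.2% of the 15613 tested genes with an entry. Counted by window, since some genes have several, the shares were 44.8%, 27.8% and 27%. A match of 6 letters is a description of the sequence only. The antioxidant core TGACNNNGC was in 21.1% of the genes that led the decreases, 15.4% of those that led the increases and 15.2% of all, and TATAAA in 15.8%, 23.1% and 13.6%.

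Receptors of innate recognition were among the genes that fell. Of 41 myeloid C-type lectin receptors 11 were lower and 30 did not pass, with 9 lower in every fit without an array. Clec4a3 read 7.69, 8.45 and 8.08 with vehicle and 6.48, 5.9 and 6.3 with JQ1 (difference -1.85 ± 0.23, adjusted p = 1.37e-05), and the fungal receptor Clec7a 6.77, 6.99 and 7.01 against 5.98, 6.17 and 6.23 (difference -0.79 ± 0.11, adjusted p = 7.66e-05). For both genes the groups were well apart. Of 23 Toll-like receptors and partners, 10 were lower, with a median of -0.35 and 8 to 11 lower when an array was left out. Tlr13, a sensor of bacterial RNA, fell (-1.57 ± 0.25, adjusted p = 0.000162), the lipoprotein receptor Tlr1 fell too (-1.18 ± 0.15, adjusted p = 1.7e-05) and Ly86, the partner of Cd180, fell too (-1.51 ± 0.23, adjusted p = 0.000119). Sting1, the adaptor that answers cytosolic DNA, read 8.58, 9.25 and 8.74 against 6.54, 7.34 and 7.49 (difference -1.74 ± 0.18, adjusted p = 1.43e-06).

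Transcripts of genes for antigen presentation through MHC class II were lower in part, unevenly between arrays. Of 20 genes, 10 fell, with a median of -0.34. H2-Ab1 read 9.24, 9.62 and 8.83 with vehicle and 6.05, 7.86 and 8.62 with JQ1, and H2-Aa 9.76, 10.06 and 9.44 and 6.73, 8.38 and 9.2. In both, JQ1 replicate 1 was lowest by over 1.5 units and JQ1 replicate 3 lay just below the vehicle range. The differences were -1.72 ± 0.39 (adjusted p = 0.00486) and -1.65 ± 0.38 (adjusted p = 0.00561), and -0.99 and -0.97 without JQ1 replicate 1. The count was 6 without that array and 2 in the fit of the 6 arrays. Cd86, a costimulatory ligand, fell (-0.6 ± 0.11, adjusted p = 0.00086). The vehicle arrays of H2-Ab1 were below the sham mean of 9.88.

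Chemokines and their receptors had 15 of 58 members lower and 1 higher (Ccl25, a call lost without JQ1 replicate 1 or 2 or vehicle replicate 2). The median was -0.14, and -0.07 without JQ1 replicate 1. Ccr1, a receptor that brings in monocytes, read 5.94, 7.14 and 6.8 with vehicle and 5.66, 5.22 and 5.03 with JQ1 (difference -1.32 ± 0.25, adjusted p = 0.00115). Cxcl16 fell (-1.09 ± 0.16, adjusted p = 0.000102) and Ccl12, a ligand of Ccr2, fell too (-0.97 ± 0.17, adjusted p = 0.00044). Ccr2 itself read 6.63, 8.91 and 8.16 with vehicle, so that its vehicle arrays differed by over 2 units, against 5.03, 5.86 and 5.84 with JQ1. When JQ1 replicate 1 was left out the list had 8 lower genes and without vehicle replicate 2 it had 9.

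Of 29 complement genes 7 fell, among them the C3a receptor C3ar1 (9.56, 10.29 and 10.01 with vehicle, 8.29, 8.57 and 8.99 with JQ1; difference -1.34 ± 0.23, adjusted p = 0.000471). The count was 4 without JQ1 replicate 1, without vehicle replicate 2 or without vehicle replicate 3. Of 26 integrins 9 fell. They include Itgb6, the epithelial beta6 chain that activates TGF-beta (8.95, 8.99 and 8.83 against 6.09, 7.32 and 7.14), Itgam of phagocytes (-1.0 ± 0.17, adjusted p = 0.000372) and Itga9 (-0.78 ± 0.14, adjusted p = 0.000724). Without vehicle replicate 2 the count was 5. Of 22 cytokine receptors of lymphoid and myeloid cells 7 fell, among them the myeloid receptors Csf1r, Csf2rb2 and Csf3r, and 2 without JQ1 replicate 1.

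**Figure D3:**
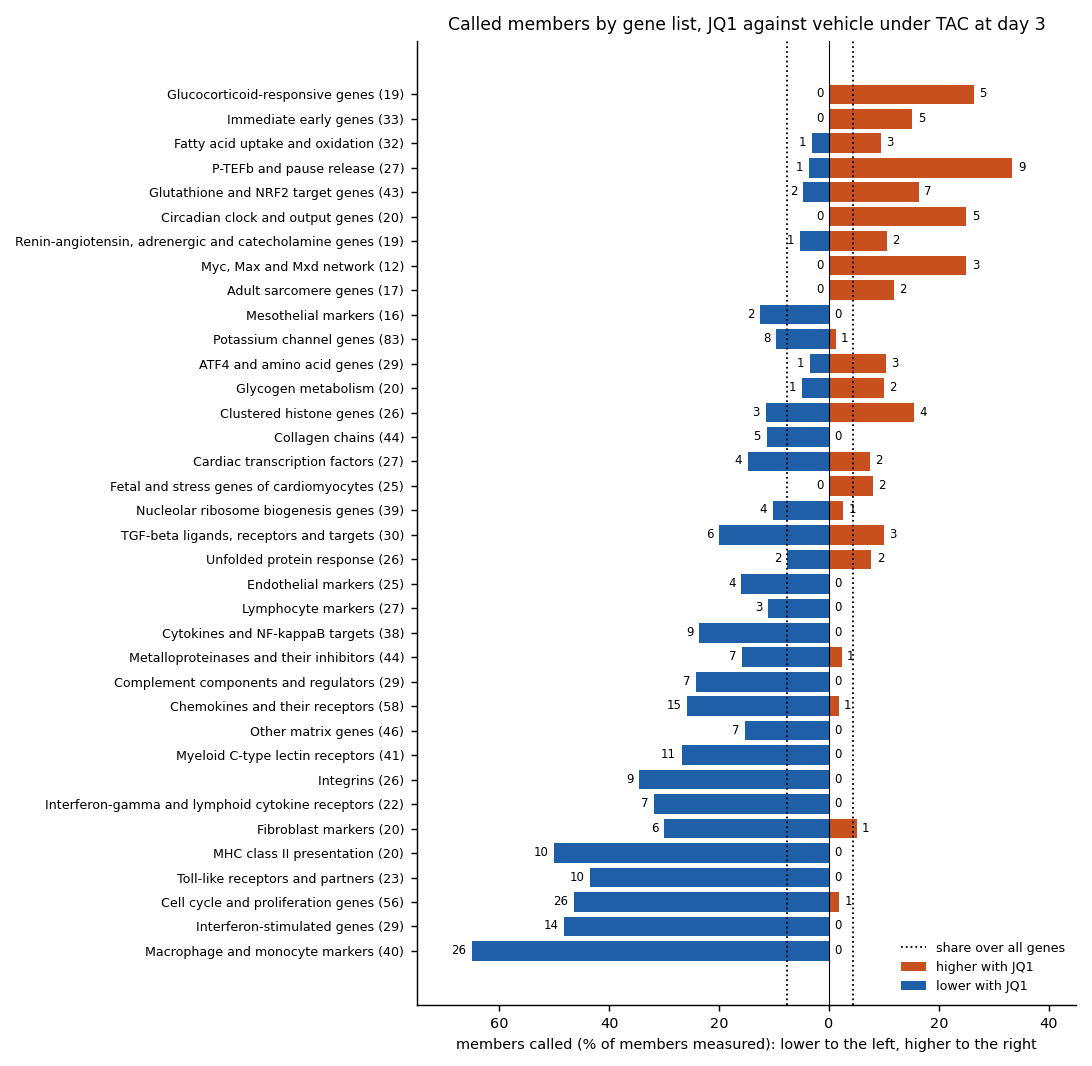
Share of each gene list called higher (right) or lower (left) with JQ1 at day 3, in percent of members measured, for the lists with at least 10 members measured and at least 2 called, ordered by median difference. Numbers beside bars count called genes, numbers in brackets give members measured, and dotted lines mark the shares over all genes, 4.28% higher and 7.61% lower. The longest bars are those of the macrophage and monocyte markers (26 of 40 lower) and, upward, P-TEFb and pause release (9 of 27 higher).

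Interferon-stimulated genes, which cells switch on to resist viruses, were lower with JQ1 than with vehicle, while the vehicle arrays stood near sham. Of 29 measured, 14 fell and 15 did not pass, with a median of -0.56. In all 14 the groups did not overlap, which held for 2209 of all 2372 called genes. Ifit3 read 8.59, 8.65 and 8.07 with vehicle and 6.38, 6.76 and 7.27 with JQ1 (difference -1.63 ± 0.34, adjusted p = 0.00228). Oas2, a sensor of double-stranded RNA, read 8.39, 8.33 and 8.29 against 7.0, 7.31 and 7.66 (difference -1.02 ± 0.21, adjusted p = 0.00216), and its relative Oasl2 8.61, 8.82 and 8.44 against 7.0, 7.37 and 7.62 (difference -1.3 ± 0.27, adjusted p = 0.00239). In these 3 genes every JQ1 array was below every vehicle and every sham array. Set against sham, the mean over the list was -0.06, -0.03 and -0.20 in the vehicle arrays and -0.90, -0.67 and -0.48 in the JQ1 arrays. The count was 5 without JQ1 replicate 1, 7 without vehicle replicate 1 and 8 without vehicle replicate 2. Without both JQ1 replicate 1 and vehicle replicate 2 limma called 0 genes of the list, with 12 lower at an unadjusted p under 0.05 and a median of -0.43. The 6-array fit called 8 lower. The macrophage markers were lower in the same arrays (26 of 40 called, median -0.63), and their part in this result was not tested.

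Genes of cell division were lower with JQ1 than with vehicle at a time when TAC had raised them: 30 of 56 were called higher in TAC with vehicle than in sham, where 4.22% of all genes were. Both comparisons use the same vehicle arrays, so a high vehicle array adds to the rise and to the fall. Of the 56, 26 were lower with JQ1 and 1 (Ccnd3) was higher, with a median of -0.41, and of -0.25 without vehicle replicate 2. The Ccnd3 call was lost without any of the JQ1 arrays or vehicle replicate 3. Mki67, present in dividing cells, read 6.72, 6.6 and 6.71 in sham, 7.93, 8.98 and 8.0 with vehicle and 6.47, 6.96 and 7.15 with JQ1 (JQ1 minus vehicle -1.44 ± 0.22, adjusted p = 0.000108). Vehicle replicate 2 was highest by about 1 unit, yet the lowest vehicle array was above the highest JQ1 array. Hmmr, of the mitotic spindle, read 5.47, 6.25 and 5.58 against 4.49, 4.43 and 4.76 (difference -1.21 ± 0.17, adjusted p = 5.26e-05). The mitotic cyclin Ccnb2 fell (-1.14 ± 0.17, adjusted p = 0.000111) and Ect2, which acts in cytokinesis, fell too (-1.06 ± 0.16, adjusted p = 0.000155). Over the list, relative to sham, vehicle arrays averaged 0.34, 0.93 and 0.44 and JQ1 arrays -0.10, 0.13 and 0.23. The count was 16 without JQ1 replicate 1 and 15 without vehicle replicate 2, and 15 genes were lower in every fit without an array. Without both arrays 8 were lower and the median was -0.15, and the 6-array fit called 5 lower. The macrophage markers moved with this list, with array means from 0.15 to 0.59 above sham with vehicle and from -0.33 to -0.12 with JQ1, and their part in the result was not tested.

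**Figure D4:**
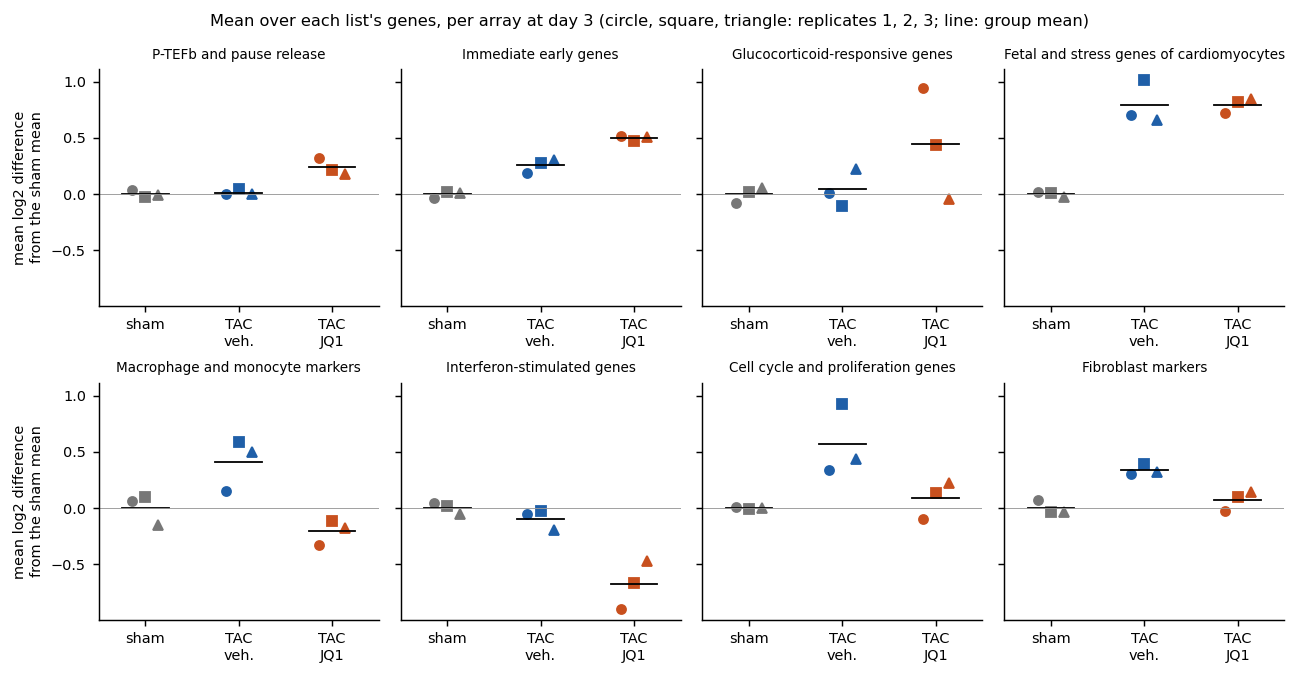
Mean log2 difference from the sham mean (y axis) over the genes of 8 lists, for each of the 9 arrays of day 3, by group (x axis). Symbols are single arrays and lines group means. JQ1 arrays are highest for P-TEFb and immediate early genes and below the vehicle arrays for macrophage, interferon, cell cycle and fibroblast lists, while for fetal and stress genes both TAC groups overlap, from 0.66 to 1.02.

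Of 38 cytokine genes and NF-kappaB targets, 9 fell and 29 did not pass, with a median of -0.09. Il33, an alarm cytokine of stromal cells, read 7.35, 7.78 and 7.79 with vehicle and 6.43, 6.32 and 6.29 with JQ1 (difference -1.3 ± 0.17, adjusted p = 2.46e-05), with the 3 JQ1 arrays within 0.2 units. Ptgs2, the inducible cyclooxygenase, read 8.0, 9.19 and 8.57 against 7.65, 7.76 and 7.94 (difference -0.8 ± 0.21, adjusted p = 0.0142), and lost its call without JQ1 replicate 1 or vehicle replicate 2. The count was 3 without JQ1 replicate 1, 2 without vehicle replicate 2 and 4 without vehicle replicate 3. Hpgds, which makes prostaglandin D2 and is found in macrophages and mast cells, read 7.59, 7.59 and 7.58 with vehicle and 6.35, 6.39 and 6.33 with JQ1 (difference -1.23 ± 0.11, adjusted p = 1.53e-07). Its replicates agreed within 0.1 units in each group, and in the 6-array fit its adjusted p was 0.00192.

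Fibroblast markers were lower with JQ1 than with vehicle, with mean levels against sham of -0.02, 0.10 and 0.14 in the JQ1 arrays below 0.30, 0.39 and 0.32 in the vehicle arrays, though the number called depended on single arrays. Of 20 fibroblast markers 6 were lower and 1 (Gsn) higher, with a median of -0.31 (-0.20 without JQ1 replicate 1). Without JQ1 replicate 1, or without vehicle replicate 2, 1 was lower, and 2 were after centring on array medians. The Gsn call was lost without JQ1 replicate 1 or 2 or vehicle replicate 2. Among the 6 lower markers were Col1a1, Col1a2 and Col3a1, which are counted again among the collagen chains. Of 44 collagen chains 5 fell, which is 11.4% called, near the 11.9% of all genes. The list's median was -0.01 against 0.02 over all genes. The 5 were Col14a1, Col3a1, Col15a1, Col1a2 and Col1a1. Col3a1 read 9.29, 10.01 and 9.7 with vehicle and 8.4, 9.11 and 9.23 with JQ1 (difference -0.75 ± 0.18, adjusted p = 0.00791), and its lowest vehicle array was just above its highest JQ1 array. With JQ1 replicate 1 left out limma called 0 collagens, with 4 lower at an unadjusted p under 0.05. It called 1 without vehicle replicate 2 and 8 without JQ1 replicate 3. Of 46 other matrix genes 7 fell, which is 15.2% called, all lower, beside 11.9% of all genes called and 7.61% called lower. The matrix count was 2 without JQ1 replicate 1 or without vehicle replicate 2, 4 without vehicle replicate 3 and 11 without JQ1 replicate 3. Emilin1, an elastic fibre protein, was among the steadier (7.82, 8.23 and 8.05 against 7.12, 7.43 and 7.61; difference -0.64 ± 0.11, adjusted p = 0.000334).

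Some of the genes that TAC raised most did not pass with JQ1. Timp1, an inhibitor of metalloproteinases, read 7.34, 7.34 and 7.01 in sham, 9.91, 12.1 and 11.68 with vehicle and 11.23, 11.21 and 10.78 with JQ1 (difference -0.16 ± 0.36, adjusted p = 0.878). Thbs1, which can activate TGF-beta, read 7.8, 7.58 and 7.42, 9.01, 10.35 and 10.23 and 10.34, 9.73 and 9.82 (difference 0.1 ± 0.26, adjusted p = 0.894). In both genes all JQ1 arrays lay within the range of the vehicle arrays and above every sham array. Of 44 metalloproteinases and inhibitors 7 fell and 1 (Timp3) rose, which is 18.2% called beside 11.9% of all genes. The Timp3 call was lost without JQ1 replicate 1 or vehicle replicate 2. Adamts15 (-0.56 ± 0.09, adjusted p = 0.000308) and Mmp19 (-0.57 ± 0.1, adjusted p = 0.000716) led, and 4 were lower without vehicle replicate 3.

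Of 30 TGF-beta ligands, receptors and targets, 6 fell and 3 rose. Tgfbi read 9.56, 10.55 and 10.19 with vehicle and 9.15, 9.23 and 8.98 with JQ1 (difference -0.98 ± 0.16, adjusted p = 0.000307). Tgfbr2, the type II receptor, fell (-0.35 ± 0.07, adjusted p = 0.00118) and the ligand Tgfb2 too (-0.58 ± 0.16, adjusted p = 0.022), the latter lost without JQ1 replicate 2 or vehicle replicate 2. Ski, a repressor of Smad signalling, rose from 9.64, 9.68 and 9.52 to 10.15, 9.99 and 9.99 (difference 0.43 ± 0.08, adjusted p = 0.000639). Ccn1, a matricellular early gene, stood at 9.9, 10.12 and 10.04 with vehicle and 11.06, 10.13 and 10.78 with JQ1 (difference 0.64 ± 0.19, adjusted p = 0.0327), a call that was lost in 5 of the 6 fits without an array. Without vehicle replicate 2 the list had 3 lower genes and 1 higher. The count of higher genes was also 1 without JQ1 replicate 1 or without vehicle replicate 3, and 5 without JQ1 replicate 3.

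In the fetal and stress program of cardiomyocytes no decrease passed at day 3. Of 25 genes, 2 rose and 23 did not pass, with 3 lower at an unadjusted p under 0.05. Without JQ1 replicate 3, or without vehicle replicate 3, limma called 1 lower. The list's mean above sham was 0.71, 1.02 and 0.66 in the vehicle arrays and 0.72, 0.82 and 0.85 in the JQ1 arrays, so the groups overlapped. Xirp1, which binds actin at the intercalated disc, rose from 10.87, 11.03 and 10.97 to 11.8, 11.54 and 12.04 (difference 0.84 ± 0.16, adjusted p = 0.00133). Myl4, the atrial light chain, rose (0.38 ± 0.11, adjusted p = 0.0288), a call lost without JQ1 replicate 1, vehicle replicate 2 or vehicle replicate 3. Rcan1, a target of calcineurin, read 10.33, 10.91 and 10.49 and 9.74, 10.4 and 10.3 (difference -0.43 ± 0.18, adjusted p = 0.142).

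In the contractile apparatus 2 of 17 adult sarcomere genes rose, which is 11.8% called, near the 11.9% of all genes. Tcap, which caps titin at the Z-disc, read 11.15, 11.38 and 11.42 in sham, 11.15, 10.75 and 11.06 with vehicle and 11.87, 11.89 and 11.66 with JQ1 (difference 0.82 ± 0.1, adjusted p = 1.49e-05). Its JQ1 arrays exceeded every sham and vehicle array. Ldb3, also of the Z-disc, rose (0.3 ± 0.08, adjusted p = 0.0128), a call lost without vehicle replicate 2. Of 26 calcium cycling genes, Asph alone passed, with -0.46 ± 0.1 (adjusted p = 0.00262).

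Of 83 potassium channel genes 8 fell and 1 (Kcng1) rose, which is 10.8% called, near the 11.9% of all genes, and the list's median of 0.01 was close to that of all genes. The Kcng1 call was lost without JQ1 replicate 1 or 3 or vehicle replicate 1 or 3. Kcnj5, a subunit of the acetylcholine-gated channel, read 9.42, 9.25 and 9.21 with vehicle and 8.45, 8.55 and 8.57 with JQ1 (difference -0.77 ± 0.07, adjusted p = 3.36e-07). Kcnj11, the pore of the ATP-sensitive channel, fell (-0.39 ± 0.07, adjusted p = 0.00051). The count was 4 without vehicle replicate 1 and 5 without vehicle replicate 3 or with arrays centred on their medians. Among 12 sodium and pacemaker channel genes, a list that holds the connexins too, Gja1 (connexin 43) fell from 11.91, 12.19 and 11.83 to 10.75, 11.43 and 11.66 (difference -0.7 ± 0.16, adjusted p = 0.0046), with JQ1 replicate 1 lowest. Gpr22, an orphan receptor of the myocardium, fell from 9.4, 9.1 and 9.22 to 7.87, 8.55 and 8.26 (difference -1.01 ± 0.16, adjusted p = 0.00023).

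Cardiac transcription factors moved both ways, with 2 of 27 higher and 4 lower. Hand2 read 8.71, 8.76 and 8.72 with vehicle and 9.4, 9.47 and 9.17 with JQ1 (difference 0.62 ± 0.11, adjusted p = 0.000671). Irx4, a factor of ventricular identity, read 9.71, 9.65 and 9.6 against 8.97, 8.81 and 8.81 (difference -0.79 ± 0.08, adjusted p = 6.19e-07). The groups were well apart for both. Prox1 (-0.36 ± 0.09, adjusted p = 0.0127) and Nfatc2 (-0.36 ± 0.1, adjusted p = 0.015) also passed, but lost their calls without vehicle replicate 1, which left 1 lower gene. When JQ1 replicate 1 was left out there were 2 lower genes. The other gene that rose was Irx5, a paralog of Irx4 (0.35 ± 0.11, adjusted p = 0.0367). With JQ1 replicate 1 or 2, or vehicle replicate 2 or 3, left out, the list had 1 higher gene.

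Few genes of energy metabolism passed. Of 32 genes of fatty acid uptake and oxidation, 3 rose and 1 (Ppara) fell, which is 12.5% called, near the 11.9% of all genes. The list's median was 0.15, 0.08 without JQ1 replicate 1 and 0.10 without vehicle replicate 2. The groups overlapped for Ppara, whose call was lost without JQ1 replicate 3, vehicle replicate 1 or vehicle replicate 3. Limma called 0 higher without JQ1 replicate 1 and 0 without vehicle replicate 2, with 5 and 4 at an unadjusted p under 0.05, and it called 9 without JQ1 replicate 3. Cpt1a, the gate of mitochondrial uptake, read 9.65, 9.6 and 9.73 with vehicle and 10.64, 10.02 and 9.81 with JQ1 (difference 0.49 ± 0.13, adjusted p = 0.015), with JQ1 replicate 1 high. None of 25 genes of the tricarboxylic acid cycle and none of 75 respiratory chain subunits passed in limma, and 0 and 2 of them had an unadjusted p under 0.05. Of 22 glycolytic genes Hk2 alone passed, reading 10.2, 10.33 and 10.28 and 8.95, 10.06 and 10.11, with JQ1 replicate 1 lowest. This call was lost without that array or without any of the vehicle arrays. Phka1, a subunit of the kinase that starts glycogen breakdown, rose from 9.71, 9.72 and 10.02 to 11.33, 10.33 and 10.2 (difference 0.8 ± 0.18, adjusted p = 0.00476). Of 20 genes of glycogen metabolism 2 rose (Phka1 and Gbe1) and 1 fell (Ppp1r3b), which is 15% called beside 11.9% of all genes. Leaving out JQ1 replicate 1 or vehicle replicate 3 left 1 higher gene, and the Ppp1r3b call was lost without JQ1 replicate 1 or any of the vehicle arrays. Of 21 genes of cholesterol synthesis Stard4 alone passed (-0.27 ± 0.08, adjusted p = 0.0225), a call lost in 5 of the 6 fits without an array.

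Several of the steadiest decreases were in genes that belong to none of these lists. Zmynd8, a reader of acetylated histones, read 8.96, 8.88 and 9.05 with vehicle and 7.52, 7.92 and 8.03 with JQ1 (difference -1.14 ± 0.09, adjusted p = 6.74e-08). Hdac9, a class IIa histone deacetylase that binds Mef2, read 9.25, 9.2 and 9.04 against 8.36, 8.4 and 8.44 (difference -0.76 ± 0.07, adjusted p = 2.8e-07). Sham levels of both, 8.93 and 9.24 on average, were those of the vehicle arrays. Sh3rf2 (-1.12 ± 0.09, adjusted p = 6.74e-08), Synj2, an inositol phosphatase (-0.82 ± 0.07, adjusted p = 1.62e-07), and Nxpe4 (-0.99 ± 0.09, adjusted p = 2.43e-07) were as even. B3galt2, a galactosyltransferase, read 8.71, 8.99 and 8.31 against 5.55, 7.77 and 7.82 (difference -1.62 ± 0.36, adjusted p = 0.00439), and -0.88 without JQ1 replicate 1.

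Among markers of other cell types a few genes were called. Of 25 endothelial markers 4 fell: Aplnr, Npr3, Kdr and Emcn. That is 16% called, all lower, beside 11.9% of all genes called and 7.61% called lower. Npr3, the clearance receptor for natriuretic peptides, fell (-0.65 ± 0.12, adjusted p = 0.00058) and held its call without any single array, whereas Aplnr (-1.35 ± 0.35, adjusted p = 0.0132) lost it without JQ1 replicate 1 or vehicle replicate 2. The count was 2 without JQ1 replicate 1, JQ1 replicate 2 or vehicle replicate 1, and 1 without vehicle replicate 2. Of 22 neutrophil markers 1 fell (Csf3r), of 16 mesothelial markers 2 (Aldh1a2 and Itgb6), and of 27 lymphocyte markers 3 (Cd28, Cd74 and Klrd1). These are 4.55%, 12.5% and 11.1% called, below or near the 11.9% of all genes. The lymphocyte count was 1 without JQ1 replicate 1 or vehicle replicate 2 and 5 without JQ1 replicate 3, and the mesothelial count was 1 without JQ1 replicate 1, vehicle replicate 2 or vehicle replicate 3. None of the markers passed in limma among 18 smooth muscle and pericyte, 10 adipocyte and 5 red cell genes, of which 4, 0 and 0 had an unadjusted p under 0.05. The summed level of the lymphocyte markers, as a mean against sham, ran from -0.05 to -0.01 with vehicle and from -0.41 to 0.03 with JQ1, with the extremes in JQ1 replicates 1 and 3.

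The sham arrays of day 3 place these values, with the caution that the effect of TAC and the effect of JQ1 share the vehicle arrays. The test called 1506 genes (7.55%) between TAC with vehicle and sham, 4.22% of all genes higher and 3.33% lower. Between TAC with JQ1 and sham it called 3511 (17.6%), 6.94% higher and 10.7% lower. Hexim1 differed from sham by -0.07 ± 0.12 with vehicle and 1.78 ± 0.12 with JQ1, and Zmynd8 by 0.04 ± 0.09 and -1.1 ± 0.09. Mki67 differed from sham by 1.62 ± 0.22 with vehicle (adjusted p = 7.16e-05) and 0.18 ± 0.22 with JQ1 (adjusted p = 0.689). Ifit3 differed by -0.16 ± 0.34 with vehicle (adjusted p = 0.883) and -1.79 ± 0.34 with JQ1 (adjusted p = 0.000575). For Clec4a1 the differences were 0.35 ± 0.24 (adjusted p = 0.501) and -2.01 ± 0.24 (adjusted p = 4.28e-06). The matrix gene Postn stood above sham by 2.3 ± 0.24 with vehicle and 1.87 ± 0.24 with JQ1.

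The later days, in other mice, show which of the day 3 differences were seen again. The same comparison called 3180 genes (16%) at day 11, 7.52% higher and 8.43% lower, and 3907 (19.6%) at day 28, 7.16% higher and 12.4% lower. Of the 2372 genes called at day 3, 1283 (54.1%) were called the same way at day 11, which is 40.3% of that day's calls, and 1406 (59.3%) at day 28, 36% of that day's calls. Opposite calls were 4 and 5. Hexim1 differed by 1.77 and 1.94 on the later days, Zswim6 by 1.22 and 1.2, and Clec4a1 by -2.24 and -2.39, close to their day 3 values. Of the 40 macrophage markers 22 were lower at day 11 and 17 at day 28.

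Other groups were called on different days. Of the 56 cell division genes 26 were lower at day 3 and 1 at day 28, while at day 11 limma called 0 lower, with 3 at an unadjusted p under 0.05. Their medians were -0.41, -0.06 and -0.05 at days 3, 11 and 28. Of the 29 interferon-stimulated genes 14, 5 and 2 were lower. Of the 25 fetal and stress genes 13 were lower at day 11 and 10 at day 28, and of the 46 other matrix genes 7, 30 and 34 were lower at days 3, 11 and 28. Fatty acid genes had 3, 18 and 7 of 32 higher. A call on one day and not on another does not show that the days differ, so the difference between days was tested directly.

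That test called few genes. The JQ1 effect at day 3 differed from that at day 11 in 17 genes (0.0853%), more positive at day 3 in 0.015% and more negative in 0.0702% of all genes. It differed from that at day 28 in 54 (0.271%), more positive in 0.251% and more negative in 0.0201%. From day 11, Hmmr differed by -1.3 ± 0.24 (adjusted p = 0.039), since its JQ1 effect was -1.21 at day 3 and 0.09 at day 11. For Mki67 the difference of -1.38 ± 0.3 did not pass (adjusted p = 0.0719), nor did that of Xirp1 (0.99 ± 0.23, adjusted p = 0.0917) or Ccn1 (1.33 ± 0.27, adjusted p = 0.0598). Hbegf, a growth factor of the EGF family, had JQ1 effects of 0.06 at day 3 and -1.18 at day 11 (difference 1.24 ± 0.23, adjusted p = 0.039), and the collagen Col8a1 -0.22 and -1.44 (difference 1.22 ± 0.22, adjusted p = 0.039). For Gpr22 the effects were -1.01 and 0.35 (difference -1.37 ± 0.23, adjusted p = 0.039). Among the lists, Hmmr was the only cell division gene, Col8a1 the only collagen and H2ac4 the only histone gene that differed between day 3 and day 11. The count against day 11 depended on single arrays. It was 6 without JQ1 replicate 1, 42 without JQ1 replicate 2, 4 without vehicle replicate 1 and 97 without vehicle replicate 2. It was 0 in limma without JQ1 replicate 3 and without vehicle replicate 3, where 2056 and 2317 genes had an unadjusted p under 0.05. Against day 28 it was 164 without JQ1 replicate 3, 95 without vehicle replicate 1 and 25 without vehicle replicate 3.

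**Figure D5:**
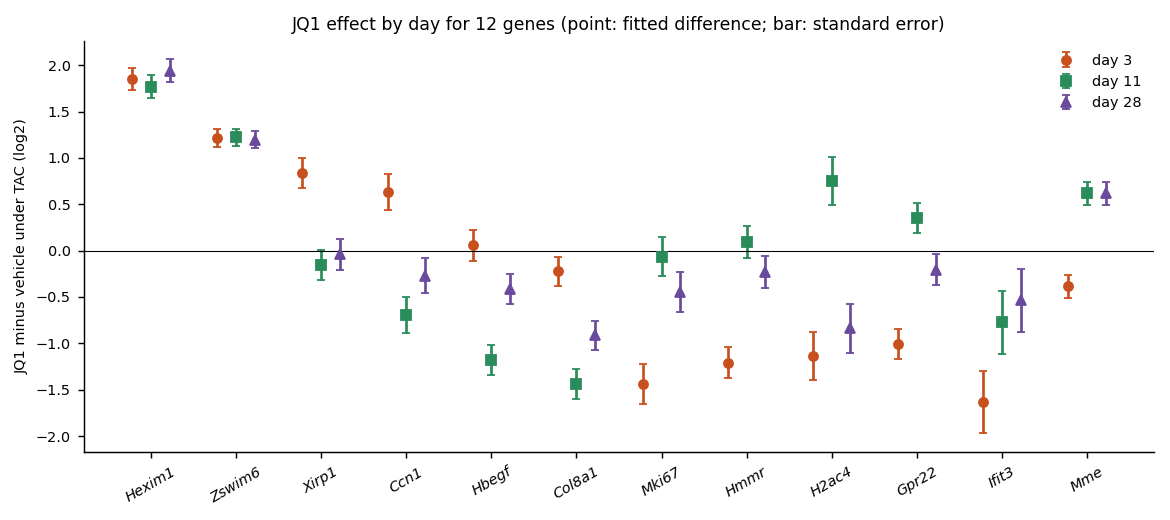
JQ1 minus vehicle under TAC (y axis, log2) at day 3, day 11 and day 28 for 12 genes. Points are fitted differences and bars standard errors. Hexim1 (1.85, 1.77 and 1.94) keeps a similar height across days, Hmmr reads -1.21, 0.09 and -0.23, and Hbegf 0.06, -1.18 and -0.42.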

How the data were processed

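Heart RNA was hybridised to Affymetrix whole-transcript mouse gene arrays, 27 in all. The values are log2 signals per probe set as the authors deposited them; their summarisation and normalization are not given in the sources used, and the submitters' processing notes name limma without a version. No scanner intensities were used. Groups and replicate numbers are those of the labels.

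Of 34760 probe sets, 21640 carry 1 gene symbol in the platform annotation, 1321 several and 11799 none; only those with 1 were used. Where a gene had several (954 of 19937 genes), the brightest on average over the 27 arrays stood for it. limma 3.58.1 in R 4.3.3 was fitted to 9 group means over the 27 arrays (18 residual degrees of freedom, 4.90 prior), which share one estimate of the spread. Contrasts were JQ1 minus vehicle at each day, their differences between days, and TAC groups minus sham at day 3. P-values were adjusted over all genes by Benjamini and Hochberg, with a threshold of 0.05. The script was tested on simulated data.

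Genes named are a set of BET, pause release and heart genes, the 15 largest differences per direction among called genes without overlap, up to 4 called members per list by smallest p, the 6 genes per direction with the smallest p between days, and the 8 per direction with the smallest p in the comparison. Members of lists with few calls, and genes named to identify which calls were lost, were added after their values were seen. Members and lists were chosen with earlier results of these data known, and the histone list's pattern was rewritten once the symbols in the files were seen.

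Promoter windows and their sequences are from RefSeq (GRCm38.p6). Alternatives were a further quantile normalization, a filter on the dimmest 1 in 3 genes, centring of arrays on their medians, averaging probe sets, a trended robust variance, array weights, only the groups compared, the replicate number as a block, and leaving out each day 3 array of the comparison. Same-numbered arrays of the 2 groups did not deviate together (correlations of 0.0345, -0.0149 and 0.0982), so numbers were not taken as pairs. With 3 arrays a group, their number limits the precision.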

Additional observations from a re-analysis of the deposited data

Results flagged for a closer look

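In the genes below the effect of JQ1 at day 3 differed from that at a later day by the test of the difference itself in limma. Values are day 3 minus the later day on the log2 scale, and no explanation was tested.

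Against day 11 the effect was more negative at day 3 for H2ac4 (-1.89), Gpr22 (-1.37), Hmmr (-1.30), the peptidase gene Mme (-1.0), Phkg1, of glycogen breakdown (-0.94), Ppm1k, of branched-chain amino acid oxidation (-0.84), Fam174b (-0.67) and Prr33 (-0.63). It was more positive for Hbegf (1.24), Col8a1 (1.22) and Emp1 (0.88), whose JQ1 effects ran from -0.22 to 0.06 at day 3 and were below -1 at day 11. Under the 14 or 15 other settings in which they could be tested, each of these 11 genes was called in 8 to 10.

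Against day 28 the effect was more positive at day 3 for the matricellular gene Ccn5 (0.93), Nav1 (0.82), the endocytic receptor Lrp1 (0.78), Ttc28 (0.76), Vwf, the von Willebrand factor of endothelium (0.76), Tspan17 (0.71) and Atp9a (0.59). It was more negative for Mme (-1.0), Tmeff2 (-0.70), the potassium channel Kcna1 (-0.54) and Gabrr2 (-0.44). Lrp1, Nav1, Tspan17, Ttc28, Vwf, Atp9a and Mme were called in 14 of 15 other settings, Ccn5 in 12, Kcna1 in 9, Gabrr2 in 7 and Tmeff2 in 8 of 14.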

How the results depend on the processing

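The 2372 genes called at day 3 became 422 (89 higher and 333 lower) in a fit of only the groups compared, where fewer arrays estimate the spread. Leaving out 1 of the 6 arrays gave 1409 to 2740 genes, 434 to 1097 higher and 975 to 1643 lower. Leaving out JQ1 replicate 1 and vehicle replicate 2 together, an alternative chosen after seeing the data, gave 951 (304 and 647). The other settings, which gave 2107 to 3007, kept the total within 1.5 times. The replicate block, which pairs arrays by number, gave 2107 (739 and 1368); not every array correlated best with its own number. The median difference over all genes was 0.02. Of 164 named genes called at day 3, 68 stayed called in the fit of only the groups compared, 96 without both arrays, 116 to 159 without 1 array, and 149 to 164 under other settings that tested all of them; 0 reversed.

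The counts of genes that differed between days moved most. Against day 11 (17 genes) they were 37 after quantile normalization, 46 without the dimmest genes, 37 with a trended robust variance, 718 with array weights, 1 with the replicate block, 131 without both arrays and 0 to 97 without 1 array. Against day 28 (54 genes) they were 244 without the dimmest genes, 178 with a trended robust variance, 230 with array weights, 27 with the replicate block and 25 to 164 without 1 array. With only the groups compared, limma called 0 and 0, with 2015 and 1618 genes at an unadjusted p under 0.05. The cause of these shifts was not tested.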
